A study of Mus musculus with 16 samples.

Results

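Secreted Wnt antagonists are extracellular proteins that limit Wnt signalling, and 9 of their genes were followed here through the atherosclerotic mouse aorta: Sost, Dkk2, Dkk3, Wif1, Frzb, Sfrp1, Sfrp2, Sfrp4 and Sfrp5. Probe sets were taken where the annotation of the array gave exactly 1 of these symbols, which found 17 probe sets. All 9 genes were among the 11037 genes tested, out of 18194 gene symbols on the array. The symbols alone chose the probe sets, but the list of 9 was drawn up with earlier group comparisons of the same arrays known, so the tests below describe the members and are no independent evidence for them as a set. Expression was measured with 1 Affymetrix array per mouse in the whole aorta of 16 mice, in 4 groups of 4. All mice lacked apolipoprotein E (genotype ApoE-/-), which makes them prone to atherosclerosis, and all ate a high fat diet for 10 weeks from 8 weeks of age, so that they were 18 weeks old. The untreated non-diabetic mice are called so because their titles give neither diabetes nor the drug described next. The non-diabetic RBX mice ate food with RBX (ruboxistaurin, compound LY333531), which blocks protein kinase C beta; the labels used here give no dose. The diabetic mice had their pancreatic beta cells destroyed with streptozotocin (STZ) at 6 weeks of age, and the diabetic RBX mice had both STZ and RBX. The design asks how diabetes and inhibition of protein kinase C beta alter gene expression in the aorta. There was no group without a high fat diet and none with intact Apoe, and the signal of a piece of whole aorta mixes its cell types, so that fewer cells of a type and less RNA per cell cannot be told apart.

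Wnt proteins bind Frizzled receptors together with the co-receptors Lrp5 and Lrp6, which stabilises beta-catenin and lets it activate target genes with TCF/LEF factors. Antagonists act outside the cell in different ways: sclerostin (Sost) and most Dickkopf proteins, though not the divergent Dkk3, bind the co-receptors, whereas Wif1 and the secreted Frizzled-related proteins, to which Frzb belongs, bind Wnt proteins themselves. In arteries the pathway is known for its roles in smooth muscle growth and in calcification.

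Promoters of 4 members are shown because these genes had the smallest adjusted p-values among the members for which a promoter was at hand. The sequences are from RefSeq on GRCm38.p6 and run from 250 bases before to 50 bases after the start of the gene, 5′ to 3′ on the strand of the gene. Of the 9 members 6 matched the promoter table, and Dkk3, Sfrp1 and Sfrp4 did not. The Sost promoter lies at chr11:101966966-101967265 on the minus strand, that of Wif1 at chr10:121033754-121034053 on the plus strand, that of Frzb at chr2:80447347-80447646 on the minus strand and that of Sfrp5 at chr19:42202203-42202502 on the minus strand. Capitals mark matches to the motifs searched on both strands: the TATA box (TATAAA), the CCAAT box (CCAAT), the GC box (GGGCGG) and a TCF/LEF site (CTTTGAA or CTTTGAT).
Sost: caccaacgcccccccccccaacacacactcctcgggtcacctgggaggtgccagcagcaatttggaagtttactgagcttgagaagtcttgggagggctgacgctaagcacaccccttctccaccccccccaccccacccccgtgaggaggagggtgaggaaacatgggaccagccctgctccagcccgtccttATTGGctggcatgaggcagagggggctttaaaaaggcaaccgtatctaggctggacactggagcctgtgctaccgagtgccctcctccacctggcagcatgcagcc
Wif1: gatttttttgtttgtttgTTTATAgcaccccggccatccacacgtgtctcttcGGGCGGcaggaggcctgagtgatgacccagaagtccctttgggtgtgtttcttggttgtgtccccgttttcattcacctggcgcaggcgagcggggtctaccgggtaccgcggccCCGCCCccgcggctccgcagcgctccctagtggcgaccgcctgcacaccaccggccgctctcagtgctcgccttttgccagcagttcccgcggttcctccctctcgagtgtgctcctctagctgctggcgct
Frzb: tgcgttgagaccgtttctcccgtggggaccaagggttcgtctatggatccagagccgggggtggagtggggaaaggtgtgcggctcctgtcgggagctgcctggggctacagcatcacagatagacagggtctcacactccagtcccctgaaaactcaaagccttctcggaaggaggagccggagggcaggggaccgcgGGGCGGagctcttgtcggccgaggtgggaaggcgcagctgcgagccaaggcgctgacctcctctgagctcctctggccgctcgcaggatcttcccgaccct
Sfrp5: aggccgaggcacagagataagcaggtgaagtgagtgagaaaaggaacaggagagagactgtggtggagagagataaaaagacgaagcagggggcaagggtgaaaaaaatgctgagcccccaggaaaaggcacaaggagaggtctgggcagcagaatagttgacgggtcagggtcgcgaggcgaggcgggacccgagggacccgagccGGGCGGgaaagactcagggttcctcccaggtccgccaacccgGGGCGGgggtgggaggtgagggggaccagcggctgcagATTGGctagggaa

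The Sost promoter held 1 CCAAT box, on the opposite strand and beginning 56 bases before the start. Frzb held 1 GC box, 51 bases before the start, and Wif1 held 2 GC boxes and 1 TATA box far upstream, at 232 bases. Sfrp5 held 2 GC boxes and 1 CCAAT box. Among all 32851 promoters of the table, 13.6% held the TATA motif, 37.4% the CCAAT motif, 35.7% the GC motif and 8.65% the TCF/LEF motif. A TCF/LEF match was found in 0 of the 6 promoters, which says only that these letters are not in this window. The numbers of CpG dinucleotides were 7 for Sost, 25 for Wif1, 20 for Frzb and 15 for Sfrp5, beside a median of 7 over all promoters.

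The measurements are MAS5 signals, linear brightness values that the authors had scaled so that each array had the same trimmed mean, and differences are given on the log2 scale with the standard error (SE) of the limma fit. A gene is said to have risen or fallen where its p-value, adjusted by Benjamini-Hochberg over the 11037 genes, was under 0.05. The number of arrays, 4 per group, limits the precision. The 4 arrays of the non-diabetic RBX mice stood apart from the other 12: the signal of the cre hybridisation control was 308745 to 575618 there, 156465 to 249020 in the untreated non-diabetic mice, 207830 to 275438 in the diabetic mice and 261860 to 294507 in the diabetic RBX mice. The Actb control probe sets, whose 3' over 5' log2 signal ratio reflects how intact and how evenly labelled the RNA was, gave 1.67 to 2.51, 0.85 to 1.32, 1.16 to 1.52 and 1.47 to 1.89 in the same order of groups. Every difference that involves the non-diabetic RBX mice rests on these arrays and cannot be given without them. Values with either measure as a covariate follow further on for the called members. Genes of the Wnt lists and cell type markers are given from the fit without a covariate.

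RBX in non-diabetic mice was the comparison in which most members passed, with 7 of 9 called: Sost, Wif1, Frzb and Dkk3 fell and Sfrp5, Dkk2 and Sfrp1 rose. In this comparison 31.7% of all genes tested were called. Of all genes 15.1% fell and 16.5% rose, beside 4 and 3 members. Diabetes without RBX changed 1 member, Sost, which fell, where 0.652% of all genes were called and 0.326% fell. RBX in diabetic mice changed 0 of 9 members at the adjusted threshold, with 0.0453% of all genes called (0.00906% higher and 0.0362% lower). Between diabetic RBX and non-diabetic RBX mice, Sost, Wif1 and Dkk3 rose, which is 3 of 9 members beside 7.10% of all genes, of which 4.44% rose and 2.66% fell. Between mice with both diabetes and RBX and untreated non-diabetic mice, Frzb and Wif1 fell and Sfrp5 rose, 3 of 9 members beside 3.93% of all genes, of which 2.19% rose and 1.74% fell. At an unadjusted p under 0.05 the members were 3 for diabetes without RBX (15.2% of all genes), 8 for RBX in non-diabetic mice (42.8%), 2 for RBX in diabetic mice, Frzb and Sfrp5 (9.20%), 5 for diabetes with RBX (24.0%) and 7 for both together (20.3%). The members were chosen with such comparisons known, and nothing is read from their shares.

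The size of the differences was as follows. The median absolute log2 difference of the 9 members was 1.14 for RBX in non-diabetic mice and 0.30 over all genes tested. For diabetes without RBX it was 0.38 against 0.16, for RBX in diabetic mice 0.22 against 0.14, for diabetes with RBX 0.43 against 0.21, and for both together 0.70 against 0.18. Signal ranges of the 2 groups did not overlap for 6 members under RBX in non-diabetic mice, beside 27.5% of all genes, and for 2 under diabetes without RBX, beside 9.45%. They did not overlap for 1 member under RBX in diabetic mice (6.89% of all genes), for 2 under diabetes with RBX (12.5%) and for 4 with both together (15.3%). These comparisons share groups: the untreated non-diabetic arrays enter 3 of them and the non-diabetic RBX arrays enter 2, so that a member far off in either group moves in several at once.

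**Figure D1:**
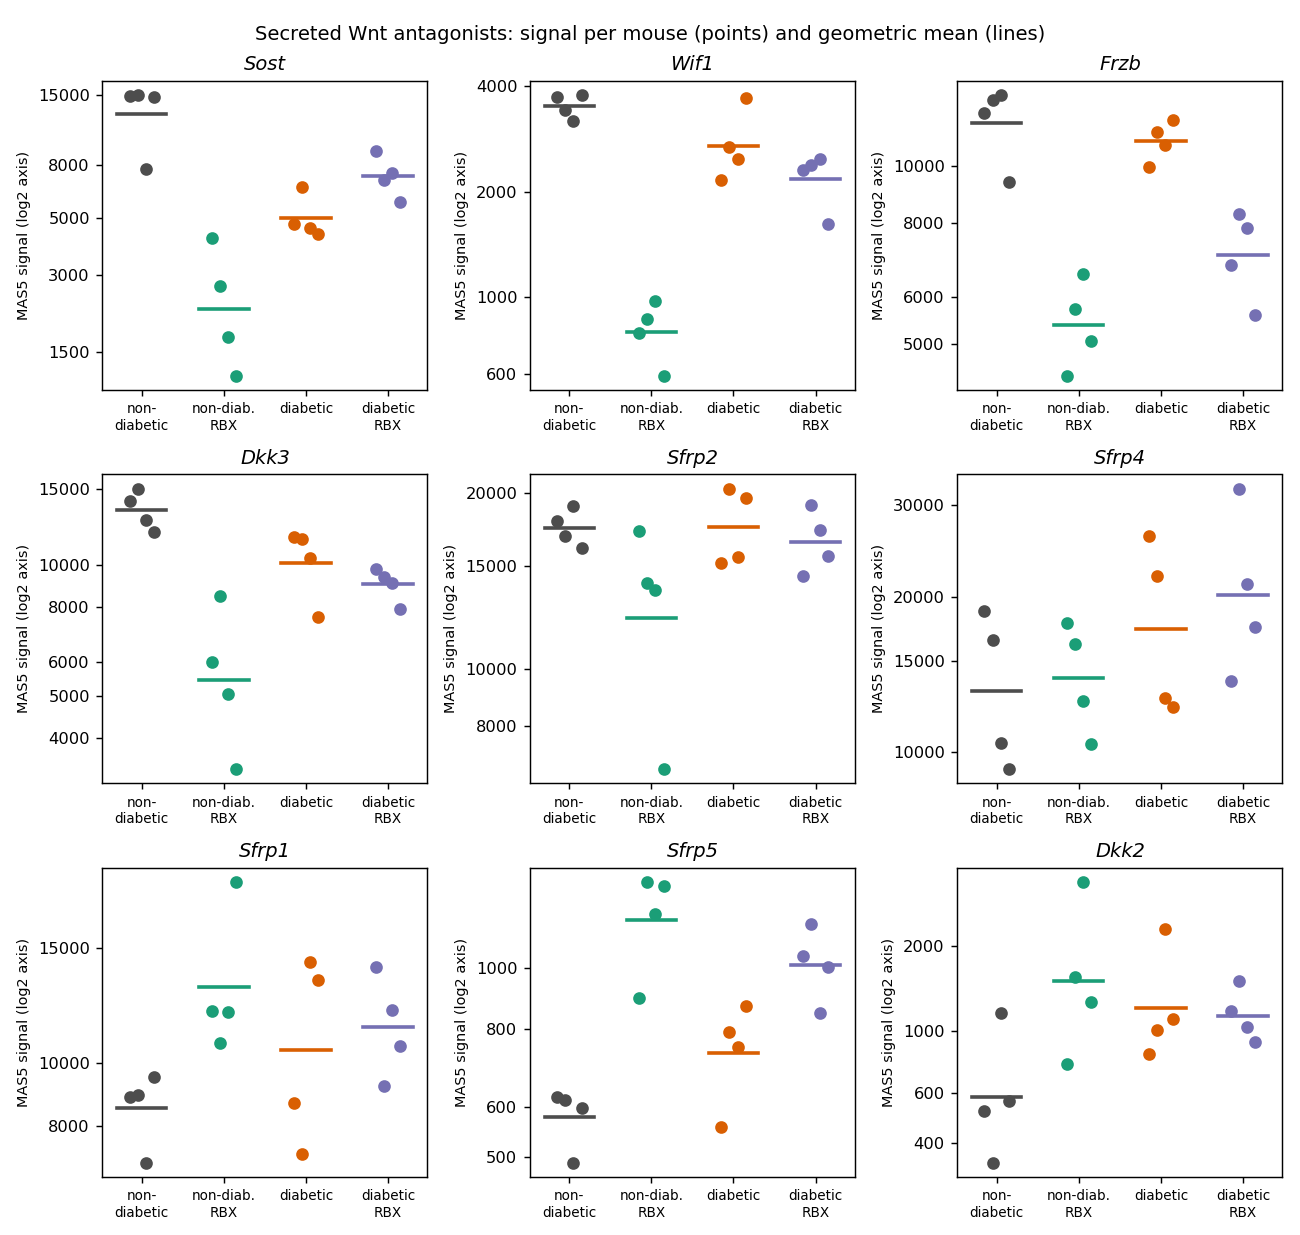
Signal of each of the 9 members in every mouse, with 1 panel per gene, the MAS5 signal on a log2 axis and the 4 groups along the horizontal axis; points are mice and lines are geometric means of a group. Sost, Wif1, Frzb and Dkk3 had their lowest group mean in the non-diabetic RBX mice, Sfrp5, Sfrp1 and Dkk2 had their highest group mean there, and the groups of Sfrp4 overlapped throughout.

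Sost encodes sclerostin, an inhibitor that binds Lrp5 and Lrp6 and is best known as a product of osteocytes. Its signal in mice 1 to 4 was 14890.6, 14983.4, 7696.2 and 14734.3 in the untreated non-diabetic group and 4178.2, 2697.3, 1720.9 and 1211.1 in the non-diabetic RBX group. It was 4707.7, 6562.0, 4566.9 and 4301.0 in the diabetic group and 9116.1, 7025.2, 7474.3 and 5742.8 in the diabetic RBX group. The untreated non-diabetic mice were highest apart from mouse 3, whose value lay among those of the diabetic RBX mice, and every non-diabetic RBX mouse was below every mouse of the other groups. Sost fell by 2.52 on the log2 scale with RBX in non-diabetic mice (SE 0.29, adjusted p = 1.09e-05), a 5.73-fold difference. It fell by 1.35 with diabetes alone (SE 0.29, adjusted p = 0.0414), with no overlap between the groups. That call is close to the threshold: it was lost when any 1 of untreated mice 1, 2 and 4 or diabetic mice 2, 3 and 4 was left out, with an adjusted p of up to 0.176, and it was kept without mouse 3 of the untreated group (-1.58, adjusted p = 0.0093). With both diabetes and RBX the difference from untreated mice was -0.80 (SE 0.29, adjusted p = 0.124), and within diabetic mice the difference with RBX was 0.54 (95% interval -0.07 to 1.16, adjusted p = 0.58).

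Sost was the member with the largest interaction, the difference between the RBX effects in the diabetic and in the non-diabetic groups. It was 3.06 on the log2 scale (SE 0.41, adjusted p = 0.00028). Wif1 at 1.84 (SE 0.25, adjusted p = 0.000309) and Dkk3 at 1.13 (SE 0.28, adjusted p = 0.0147) also passed, which makes 3 of 9 members beside 11.5% of all genes tested (6.03% above and 5.51% below 0). At an unadjusted p under 0.05 there were 6 members, beside 27.9% of all genes. Of the smooth muscle markers described further on, 7 of 9 also passed above 0. Among the members that did not pass, Dkk2 had -1.46 (SE 0.58, adjusted p = 0.106), Frzb 0.49 (adjusted p = 0.113) and Sfrp5 -0.58 (adjusted p = 0.171). The 3 that passed had fallen with RBX in non-diabetic mice and had differences of 0.54, -0.32 and -0.17 with RBX in diabetic mice.

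Of the Dickkopf genes, Dkk3 encodes a divergent family member whose effect on Wnt signalling varies with the cell. Its signal in mice 1 to 4 was 14017.3, 15007.3, 12705.5 and 11941.7 in the untreated non-diabetic group and 5993.8, 8482.2, 5053.0 and 3393.2 in the non-diabetic RBX group. The diabetic mice had 11625.2, 11499.2, 10402.5 and 7604.4, and the diabetic RBX mice 9777.6, 9404.5, 9093.8 and 7943.2. All untreated non-diabetic mice were above all other mice, while the non-diabetic RBX mouse 2 reached into the range of both diabetic groups. Dkk3 fell with RBX in non-diabetic mice (-1.30, SE 0.20, adjusted p = 0.000112). With diabetes alone the groups did not overlap either, but the difference of -0.40 (SE 0.20, adjusted p = 0.349) did not pass. Dkk3 rose from non-diabetic RBX to diabetic RBX mice (0.73, SE 0.20, adjusted p = 0.0306). This rise lost its call under 10 of 20 alternatives, 5 of them the omission of a single array (mouse 3 or 4 of the non-diabetic RBX group, or mouse 1, 2 or 3 of the diabetic RBX group), with adjusted p-values up to 0.516.

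Dkk2, which binds Lrp5 and Lrp6 and can inhibit or activate the pathway depending on the cell, varied widely between mice. Its signal was 517.7, 339.4, 1152.5 and 560.3 in the untreated non-diabetic mice and 761.4, 1547.0, 3368.6 and 1261.0 in the non-diabetic RBX mice. The diabetic mice had 826.7, 1003.0, 2301.8 and 1100.3, and the diabetic RBX mice 1168.8, 1496.6, 1028.5 and 908.9. Mouse 3 was the highest of its group in the first 3 of these groups, and the groups overlapped. Dkk2 rose with RBX in non-diabetic mice (1.37, SE 0.41, adjusted p = 0.0165). Without untreated non-diabetic mouse 2 the difference was 1.11 (adjusted p = 0.0621), and without non-diabetic RBX mouse 3 it was 0.98 (adjusted p = 0.0596). The coefficient of variation of Dkk2 was 55.0% in untreated non-diabetic, 65.5% in non-diabetic RBX and 51.4% in diabetic mice, the highest of the 9 members in each, and 22.1% in diabetic RBX mice, where Sfrp4 had 38.0%. With diabetes alone Dkk2 differed by 1.05 (95% interval 0.20 to 1.91, adjusted p = 0.222).

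Among the antagonists that bind Wnt proteins, Wif1 (Wnt inhibitory factor) had the smallest p of the members with RBX in non-diabetic mice. Its signal was 3740.3, 3426.5, 3187.0 and 3776.1 in the untreated non-diabetic mice and 789.6, 864.4, 968.9 and 593.8 in the non-diabetic RBX mice. Diabetic mice had 2160.5, 2685.5, 2475.8 and 3696.3, and diabetic RBX mice 2310.3, 2384.4, 2475.4 and 1615.5. The non-diabetic RBX mice were all below every other mouse, and the diabetic groups lay between them and the untreated mice, with 1 diabetic mouse inside the untreated range. Wif1 fell by 2.15 on the log2 scale with RBX in non-diabetic mice (SE 0.18, adjusted p = 1.84e-06), a 4.45-fold difference and the 2nd smallest p of the 11037 genes. Wif1 rose from non-diabetic RBX to diabetic RBX mice (1.45, SE 0.18, adjusted p = 0.00023), with the 7th smallest p. That rise kept its call under 20 of 20 alternatives, with differences from 1.22 to 1.59 and adjusted p-values from 0.000156 to 0.0391. Wif1 had no other probe set, so the alternatives in the probe set rule could change its adjusted p but not its difference. With both diabetes and RBX, Wif1 fell against untreated mice (-0.70, SE 0.18, adjusted p = 0.0364), a call lost under 12 of 20 alternatives, among them the omission of any 1 of the 8 arrays compared apart from untreated mouse 3, with adjusted p-values up to 0.597. The difference with diabetes alone was -0.38 (SE 0.18, adjusted p = 0.314).

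Frzb encodes the secreted Frizzled-related protein that is also known as sFRP3 and is prominent in cartilage. Its signal was 12251.8, 12925.2, 13159.0 and 9364.9 in the untreated non-diabetic mice and 4411.4, 5718.0, 6551.3 and 5053.5 in the non-diabetic RBX mice. The diabetic mice had 9938.1, 11413.8, 10842.5 and 11953.5, and the diabetic RBX mice 6799.8, 8291.3, 7839.9 and 5585.7. The mice without RBX were thus all above the mice with RBX, in diabetic and in non-diabetic animals. Frzb fell with RBX in non-diabetic mice (-1.14, SE 0.14, adjusted p = 1.96e-05), and its difference with RBX in diabetic mice was -0.64 (SE 0.14, 95% interval -0.94 to -0.35, adjusted p = 0.1). In a fit of the 2 diabetic groups alone, which leaves the non-diabetic RBX arrays out, the same difference had an adjusted p of 0.0426, and with array weights it was -0.62 with an adjusted p of 0.0334. The call was not made under the other 18 of 20 alternatives, with adjusted p-values from 0.0674 to 0.34, among them 0.0769 with the cre and 0.218 with the Actb covariate. Frzb also fell between untreated mice and mice with both diabetes and RBX (-0.75, SE 0.14, adjusted p = 0.0105), while diabetes alone gave -0.10 (95% interval -0.40 to 0.19, adjusted p = 0.795). The call with both together was lost with the cre (adjusted p = 0.0836) and with the Actb covariate (adjusted p = 0.161). The interaction of 0.49 did not pass, so a different effect of RBX in the diabetic and non-diabetic mice was not shown for Frzb.

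Sfrp5, a secreted Frizzled-related protein studied in adipose tissue, went the other way at a low signal. It was 623.5, 616.7, 488.9 and 596.9 in the untreated non-diabetic mice and 897.4, 1374.5, 1221.0 and 1355.7 in the non-diabetic RBX mice. The diabetic mice had 558.0, 790.3, 748.7 and 872.2, and the diabetic RBX mice 1044.9, 1177.6, 847.2 and 1004.9. Both RBX groups were above all untreated non-diabetic mice, and diabetic mouse 1 was the only diabetic mouse within the untreated range. Sfrp5 rose with RBX in non-diabetic mice (1.05, SE 0.19, adjusted p = 0.000564). With both diabetes and RBX it also rose against untreated mice (0.81, SE 0.19, adjusted p = 0.0286), a call lost under 9 of 19 alternatives, with adjusted p-values up to 0.289, 6 of them the omission of a single array (untreated mouse 1, 2 or 4, or diabetic RBX mouse 1, 2 or 4). The difference with RBX in diabetic mice was 0.47 (95% interval 0.06 to 0.87, adjusted p = 0.466).

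Sfrp1 and Sfrp2 are close relatives among the secreted Frizzled-related proteins. Sfrp1 was 8854.9, 8915.9, 7022.5 and 9508.2 in the untreated non-diabetic mice and 11995.4, 10739.8, 11969.7 and 18945.8 in the non-diabetic RBX mice. It ranged from 7237.5 to 14293.8 in the diabetic and from 9216.9 to 14043.0 in the diabetic RBX mice, which overlapped both. Sfrp1 rose with RBX in non-diabetic mice (0.62, SE 0.21, adjusted p = 0.0291). This call was lost under 6 of 20 alternatives, with an adjusted p of up to 0.539. Among these 6 were the omissions of untreated mouse 1 (0.64, adjusted p = 0.0508), untreated mouse 3 (0.52, adjusted p = 0.0806) and non-diabetic RBX mouse 4 (0.44, adjusted p = 0.105). Sfrp2 was 17953.9, 16908.9, 18988.0 and 16139.2 in the untreated non-diabetic mice and 17262.3, 14028.3, 13681.6 and 6751.2 in the non-diabetic RBX mice. Mouse 4 of the latter group was the lowest of all 16. The Sfrp2 difference of -0.51 (SE 0.20, 95% interval -0.93 to -0.09, adjusted p = 0.0579) did not pass, and in the other 4 comparisons of 2 groups Sfrp2 lay between -0.08 and 0.43.

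Sfrp4, which is grouped with Frzb by sequence and is known for inhibiting Wnt signals in bone, passed in 0 of the 6 limma comparisons, and in 1 at an unadjusted p under 0.05. Its signal ranged from 9278.2 to 18764.9 in the untreated non-diabetic, 10398.9 to 17750.5 in the non-diabetic RBX, 12258.6 to 26229.5 in the diabetic and 13709.0 to 32329.8 in the diabetic RBX mice. The largest difference was 0.61 between untreated mice and mice with both diabetes and RBX (95% interval 0.01 to 1.21, adjusted p = 0.238). Every pair of its groups overlapped, and the interval of the RBX effect in non-diabetic mice ran from -0.52 to 0.68.

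**Figure D2:**
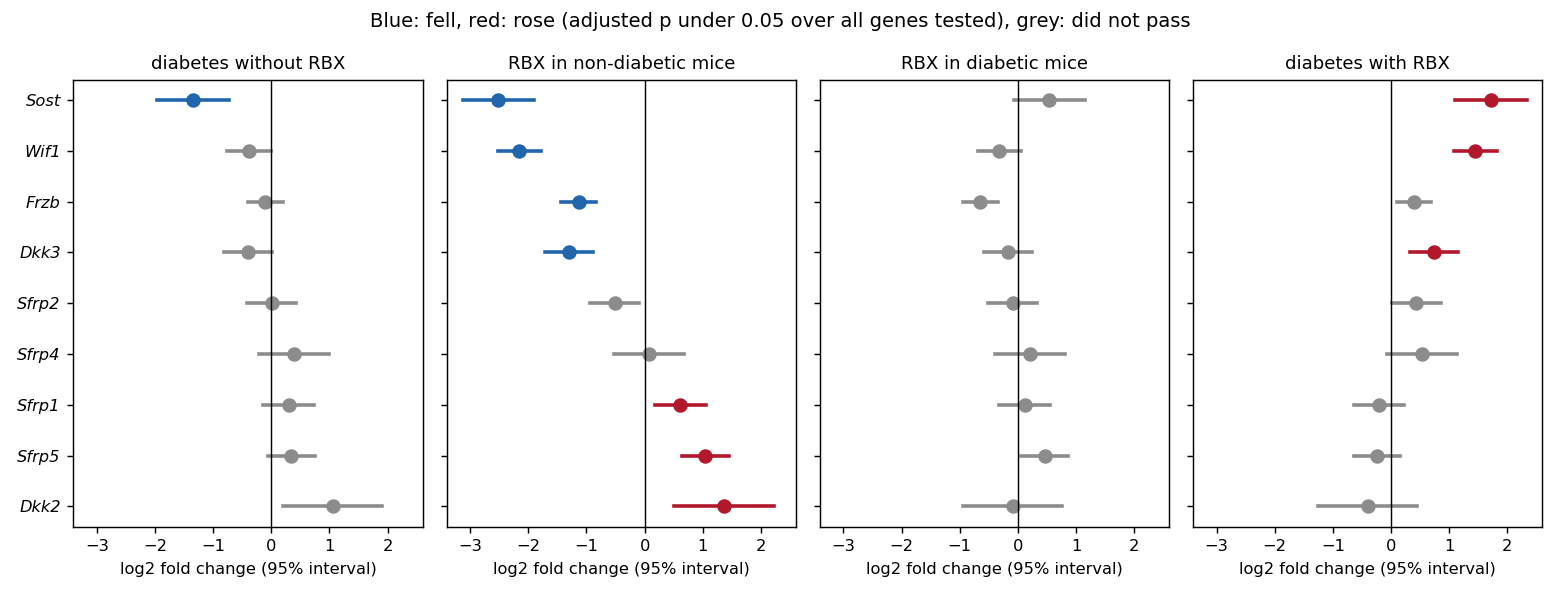
Log2 fold change (points) with its 95% interval (bars) for each member in 4 comparisons of 2 groups, from the limma fit on all 16 arrays; blue and red mark members that fell or rose at an adjusted p under 0.05, and grey marks those that did not pass. Most called members, 7 of 9, are in the panel of RBX in non-diabetic mice, and the panel of RBX in diabetic mice has 0.

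In the order of their group means, neighbouring groups mostly could not be separated. For Sost and Wif1 the step from the lowest group, the non-diabetic RBX mice, to the next was the only one without overlap. Frzb had its gap between the diabetic and the diabetic RBX mice. Dkk3 had its gap between the untreated non-diabetic mice and the diabetic mice, the next group. For Sfrp1, Sfrp2, Sfrp4, Sfrp5 and Dkk2 all neighbouring groups overlapped.

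**Figure D3:**
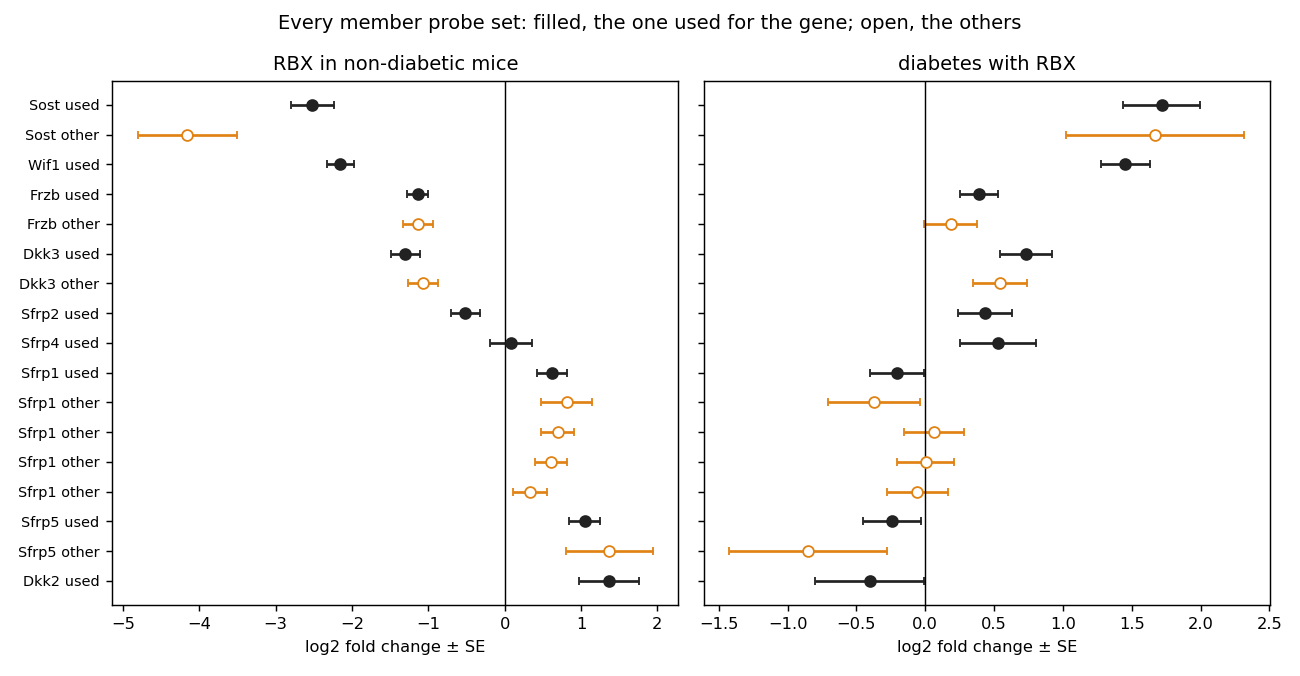
Log2 fold change ± SE for each of the 17 member probe sets under RBX in non-diabetic mice (left) and diabetes with RBX (right); filled points are the probe sets used for a gene and open points the others. The other probe sets of Sost, Frzb, Dkk3, Sfrp1 and Sfrp5 lie on the same side of 0 as the one used in the left panel.

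Of the 17 probe sets, 15 passed the filter on low signals, and the remaining probe sets of Sost and Sfrp5 did not. In a fit of all probe sets without the filter, the dim Sost probe set differed by -4.15 (SE 0.65) with RBX in non-diabetic mice and by -2.38 (SE 0.65, adjusted p = 0.137) with diabetes alone. Its signal was 614.7 to 1717.3 in the untreated non-diabetic and 28.9 to 199.3 in the non-diabetic RBX mice, again without overlap. The other Frzb probe set differed by -1.13 (SE 0.19) and the other Dkk3 probe set by -1.06 (SE 0.20) in the same comparison. The 4 other Sfrp1 probe sets differed by 0.33 to 0.81, and 1 of these passed (0.70, adjusted p = 0.0345). The dim Sfrp5 probe set differed by 1.37 (SE 0.57, adjusted p = 0.122), and by -0.62 (SE 0.57) with RBX in diabetic mice, against 0.47 for the probe set used. Between diabetic RBX and non-diabetic RBX mice the Sfrp1 probe sets lay on both sides of 0, from -0.37 to 0.06. The other Dkk3 probe set did not pass there (0.54, adjusted p = 0.16), against 0.73 (adjusted p = 0.0396) for the one used. Its interaction was 0.87 (adjusted p = 0.0881), against 1.13 (adjusted p = 0.0195). The dim Sost probe set had 1.67 for diabetes with RBX (adjusted p = 0.194). With RBX in diabetic mice it had -0.10 (SE 0.65), against 0.54 for the one used.

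**Figure D4:**
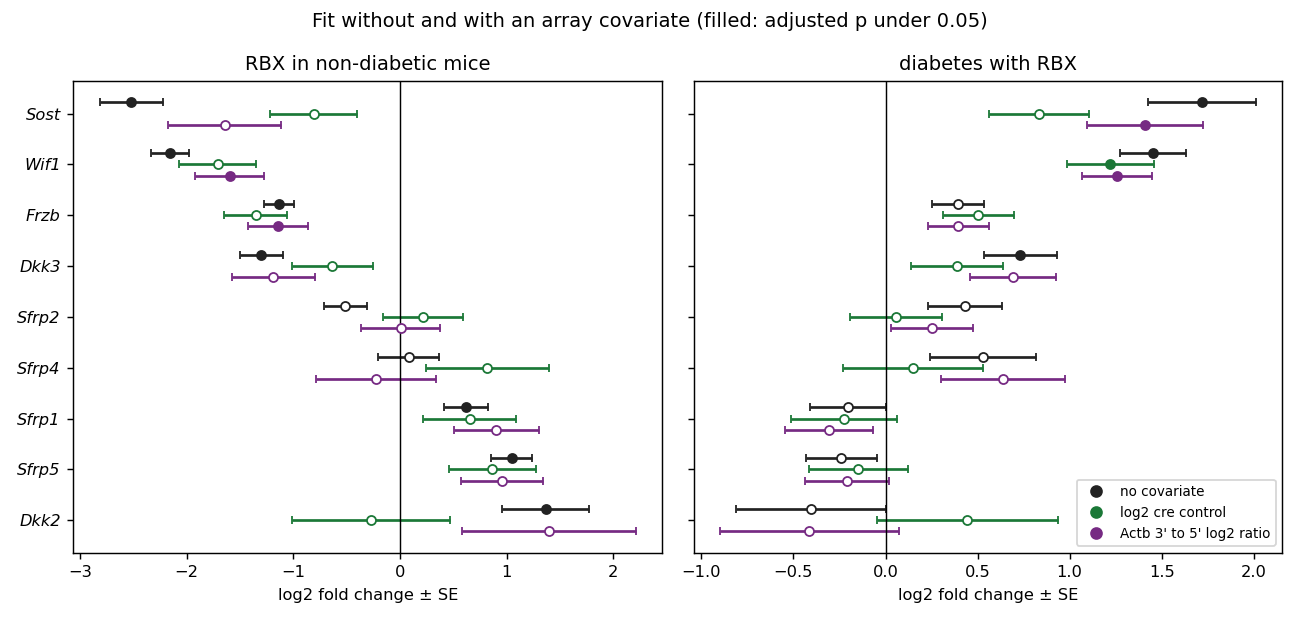
Log2 fold change ± SE of the 9 members for RBX in non-diabetic mice (left) and diabetes with RBX (right), fitted without a covariate, with the log2 signal of the cre control or with the Actb 3' to 5' log2 ratio; filled points have an adjusted p under 0.05. With the cre signal in the fit, 0 of 9 members are called on the left, and Wif1 is the only member called on the right.

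The array measures moved with the group, and the fits that include them differ from the fit without. With the cre signal as a covariate, RBX in non-diabetic mice called 0 members and 0 of all 11037 genes; Wif1 was then at -1.71 (SE 0.36, adjusted p = 0.0572), Frzb at -1.35 (SE 0.29, adjusted p = 0.0578) and Sost at -0.81 (SE 0.41, adjusted p = 0.387). With the Actb ratio the same comparison called 2 members, Frzb at -1.15 (adjusted p = 0.0476) and Wif1 at -1.60 (adjusted p = 0.0305), beside 174 genes in all. Dkk2 turned to -0.27 with the cre signal (SE 0.74, adjusted p = 0.911) and was 1.39 with the Actb ratio (adjusted p = 0.386). With the cre signal and with the Actb ratio, Dkk3 was at -0.64 (adjusted p = 0.475) and -1.19 (adjusted p = 0.127). Sfrp5 was at 0.86 (adjusted p = 0.343) and 0.96 (adjusted p = 0.197), and Sfrp1 at 0.65 (adjusted p = 0.539) and 0.90 (adjusted p = 0.247). Sost was at -1.64 with the Actb ratio (adjusted p = 0.119). For diabetes with RBX, Wif1 was called at 1.22 with the cre signal (adjusted p = 0.0391) and at 1.26 with the Actb ratio (adjusted p = 0.00328), and Sost at 1.41 with the Actb ratio alone (adjusted p = 0.0256). With the cre signal Sost was at 0.83 there (adjusted p = 0.184). Dkk3 was at 0.39 with the cre signal (adjusted p = 0.516) and at 0.69 with the Actb ratio (adjusted p = 0.124). Of all genes 48 were called there with the cre signal and 292 with the Actb ratio. The fall of Sost with diabetes alone became -0.83 (adjusted p = 0.214) and -1.09 (adjusted p = 0.135). For both diabetes and RBX against untreated mice, Frzb was at -0.85 with the cre signal (adjusted p = 0.0836) and at -0.75 with the Actb ratio (adjusted p = 0.161). Wif1 was at -0.49 (adjusted p = 0.427) and -0.34 (adjusted p = 0.597) there, and Sfrp5 at 0.72 (adjusted p = 0.286) and 0.75 (adjusted p = 0.289). The interaction of Sost became 1.66 with the cre signal (adjusted p = 0.104) and 2.50 with the Actb ratio (adjusted p = 0.0149). That of Wif1 became 1.47 (adjusted p = 0.104) and 1.48 (adjusted p = 0.0159), and that of Dkk3 0.59 (adjusted p = 0.539) and 1.06 (adjusted p = 0.115). What the array measures contribute and what RBX contributes cannot be told apart in the non-diabetic RBX mice, since the cre signal of each of these arrays lay above those of all the other arrays. The same limit holds for both diabetes and RBX against untreated mice, whose arrays did not overlap in either measure. The cre signal was 156465 to 249020 in untreated and 261860 to 294507 in diabetic RBX mice. The Actb ratio was 0.85 to 1.32 and 1.47 to 1.89.

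Markers of the cell types of the aorta moved in the same comparison. Of all genes tested 31.7% were called there, and the counts of markers stand beside that share. With the cre signal as a covariate 0 of all genes, and so 0 of these markers, were called for RBX in non-diabetic mice. Of 9 smooth muscle markers, 7 fell and 1 rose with RBX in non-diabetic mice, with a median of -1.07 against 0.03 over all genes tested. Their summed signal was 557995 to 610161 in untreated non-diabetic, 338593 to 535506 in non-diabetic RBX, 465558 to 562467 in diabetic and 569399 to 642723 in diabetic RBX mice. Endothelial markers rose in 6 of 7 cases (median 0.73, summed signal 19541 to 26277 untreated and 30842 to 40012 with RBX), and macrophage markers in 5 of 6 (median 0.75, 136812 to 207500.1 untreated and 197285 to 295214 with RBX). Adventitial fibroblast markers had 3 of 10 that rose (median 0.25). Mesothelial markers Upk3b and Lrrn4 both rose (median 2.53), with Msln, Krt19 and Wt1 below the filter. Of the remaining lists, 0 of 4 brown adipocyte markers (median 1.45, 3 at an unadjusted p under 0.05) and 1 of 3 white adipocyte markers rose, 2 of 4 markers of striated muscle fell, and 1 of 3 Schwann cell markers rose. Between non-diabetic RBX and diabetic RBX mice 7 of 9 smooth muscle markers rose (median 0.99), beside 7.10% of all genes called. For diabetes without RBX 0 of 9 passed (median -0.35), where 0.652% of all genes were called. At an unadjusted p under 0.05 were 5 of these 9, beside 15.2% of all genes. The same held for 5 of 7 endothelial (median 0.48), 5 of 6 macrophage (median 0.44) and 1 of 10 adventitial fibroblast markers. Of these lists, the endothelial marker Cldn5 rose at the adjusted threshold (0.66, adjusted p = 0.0306). The part of these cell types in the differences of the members was not tested.

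Sost and Frzb are also known from bone and cartilage, so markers of those tissues were read. Of 4 chondrocyte markers tested, 1 rose and 0 fell with RBX in non-diabetic mice (median -0.04), and Col2a1, Chad, Matn3 and Cnmd were below the filter. Of 3 osteoblast and osteocyte markers tested, 0 passed (median 0.50), 2 of them at an unadjusted p under 0.05, and Ibsp, Dmp1 and Mepe were below the filter. Their part in the differences of Sost and Frzb was not tested.

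The rest of the Wnt pathway was read from 5 gene lists without the members. Of the Wnt ligands 6 of 19 passed the filter, of the receptors and co-receptors 12 of 17, of the other extracellular modulators 11 of 22, of the intracellular transducers 26 of 30 and of the target genes of beta-catenin 11 of 19. The further antagonists Dkk1, Dkk4, Sostdc1, Notum and Cer1 were below the filter. With RBX in non-diabetic mice 1 ligand rose and 0 fell, 1 receptor rose and 6 fell, 2 modulators rose and 5 fell, 3 transducers rose and 1 fell, and 4 target genes rose and 1 fell. Over the 5 lists 24 of 66 genes were called, 36.4%, beside 31.7% of all genes tested, with 15.4% of the transducers and 63.6% of the modulators. With the cre signal as a covariate 0 of all genes, and so 0 of these, were called in this comparison. Medians of the lists were 0.64, -0.35, -0.56, -0.02 and 0.28 in that order, against 0.03 over all genes tested.

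Among the named genes of that comparison, Wnt11, a ligand mostly known for beta-catenin-independent signalling, rose (0.97, adjusted p = 0.00691). The Frizzled receptor Fzd4 rose (1.22, adjusted p = 8.24e-05), from 7281.3 to 9511.1 in untreated to 12216 to 25122 in RBX mice, while the Wnt5a receptor Ror1 (-1.22, adjusted p = 0.000293) and the Frizzled receptors Fzd7 (-0.88, adjusted p = 0.00133), Fzd8 (-0.86), Fzd2 (-0.50) and Fzd5 (-0.65) fell. Receptors of the R-spondins, which strengthen Wnt signals, fell: Lgr6 by 1.74 (adjusted p = 2.97e-05) and Lgr4 by 0.80 (adjusted p = 0.000169). Wls, which carries Wnt proteins to the cell surface, fell (-0.99, adjusted p = 0.000246). Of the R-spondins, Rspo3 fell (-1.06, adjusted p = 0.00926) and Rspo1 rose (1.40, adjusted p = 0.0107). Igfbp4, a binding protein of insulin-like growth factors that can also inhibit Wnt signals, rose (0.59, adjusted p = 0.000532).

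Among the transducers inside the cell, Dvl1, which relays the signal from Frizzled, rose (0.55, adjusted p = 0.000296), the kinase gene Csnk1a1 of the beta-catenin destruction complex fell (-0.47, adjusted p = 0.000594), Gsk3a rose (0.47, adjusted p = 0.00486) and Prickle1, of the planar polarity branch, rose (0.53, adjusted p = 0.025). Of the target genes, Tiam1 (0.97, adjusted p = 0.00153), Nkd2 (1.14, adjusted p = 0.00834), Myc (0.81, adjusted p = 0.0221) and Ccnd1 (0.39, adjusted p = 0.0496) rose and Bambi fell (-0.65, adjusted p = 0.0276). Several of these genes are regulated by other pathways as well. The remaining target genes tested, Axin2, Nkd1, Ccn4, Ccn5, Cd44 and Twist1, did not pass. Lef1, Sp5, Tnfrsf19, Prox1, Ascl2, Mmp7 and Fosl1 were below the filter, and Tcf7 was not found on the array.

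In diabetes with RBX, 2 receptors, 2 modulators and 1 transducer rose and 0 genes of the 5 lists fell. These 5 of 66 genes are 7.58%, near the 7.10% of all genes called in this comparison. Lgr6 rose by 1.66 (adjusted p = 0.000431), Lgr4 by 0.86 (adjusted p = 0.000899), Ror1 by 0.92 (adjusted p = 0.0113), Fzd7 by 0.79 (adjusted p = 0.0121) and Csnk1a1 by 0.32 (adjusted p = 0.0306). The Lgr6 signal was 1665.9 to 4302 in non-diabetic RBX and 7618.4 to 9479 in diabetic RBX mice. With both diabetes and RBX against untreated mice, Wnt11 (1.16, adjusted p = 0.0193), Fzd4 (0.72, adjusted p = 0.0326) and Igfbp4 (0.52, adjusted p = 0.0166) rose, 3 of 66 genes or 4.55%, beside 3.93% of all genes. The interaction passed for Lgr6 (2.08), Lgr4 (0.96), Fzd7 (1.08), Ror1 (1.07), Wls (0.76), Csnk1a1 (0.50), Rspo2 (-1.60) and Tiam1 (-0.90), 8 of 66 genes or 12.1%, beside 11.5% of all genes.

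Diabetes without RBX and RBX in diabetic mice changed 0 of the 66 genes of the 5 lists at the adjusted threshold. Of all genes 0.652% and 0.0453% were called in these comparisons. At an unadjusted p under 0.05 the first had 1 ligand, 1 receptor, 3 modulators, 1 transducer and 2 target genes, and the second 2, 3, 3, 3 and 1. Of all genes 15.2% and 9.20% were under that threshold. Among the genes of smallest p in their lists, the first had Ctnnbip1, an inhibitor of beta-catenin (0.69, adjusted p = 0.129), Kremen1, a Dickkopf receptor (-0.66, adjusted p = 0.118), and Myc (0.60, adjusted p = 0.265). For RBX in diabetic mice Rspo2 had -1.53 (adjusted p = 0.08) and Wnt7a 0.80 (adjusted p = 0.303).

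**Figure D5:**
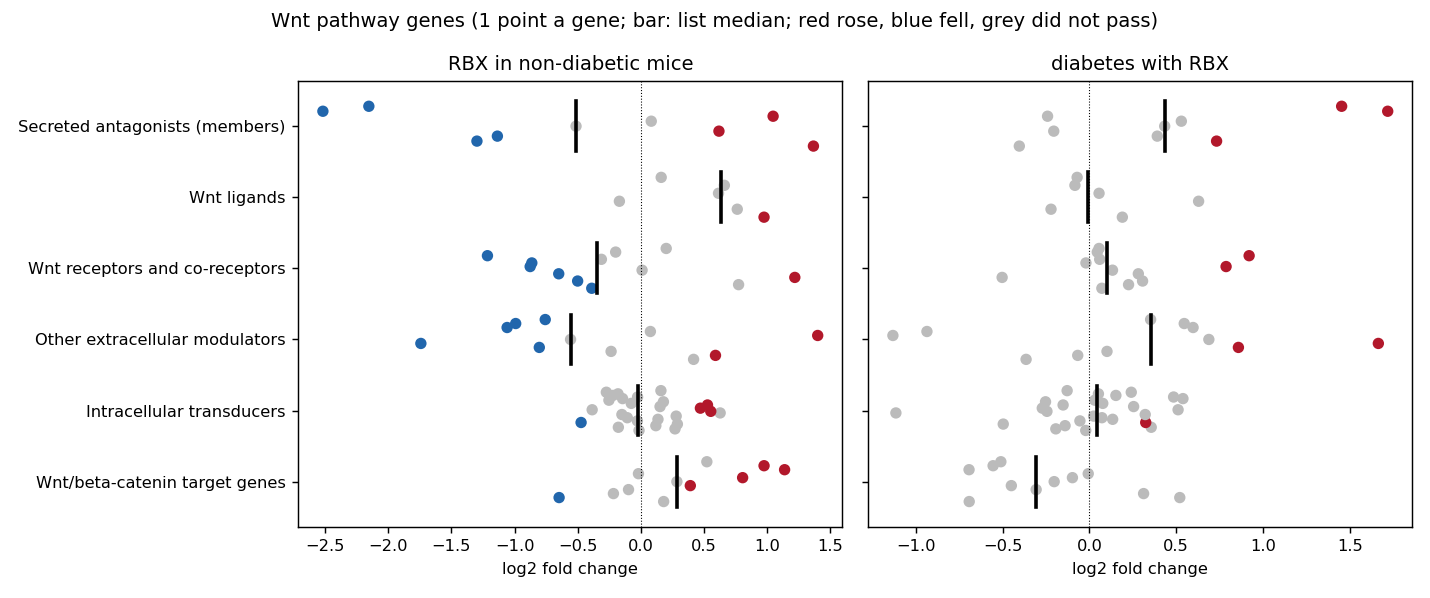
Log2 fold change of every tested gene of the members and of the 5 Wnt lists under RBX in non-diabetic mice (left) and diabetes with RBX (right); a point is a gene, a bar is the median of a list, red and blue mark genes that rose or fell and grey those that did not pass. In the left panel Sost is at -2.52 and Wif1 at -2.15, and the lowest called gene of the 5 lists, Lgr6, is at -1.74.

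Likeness was read as Pearson's r of the log2 signal over the 16 arrays, which share the 4 groups and the array measures above, and is a description. Nearest to Sost were Csrp1, Lratd1 and Ramp1 (r = 0.97 each, and 0.84 to 0.90 after subtracting the group means). Nearest to Wif1 were Itgb1 (0.97), Rgs4 (0.96) and Gcnt2 (0.95), with 0.72, 0.80 and 0.58 after that subtraction. Dkk3 had Wls (0.96), Ltbp1 (0.96) and Chmp4c (0.96), with 0.86, 0.85 and 0.84 after it. Frzb had Pdgfc (0.93), Mmgt1 (0.92) and Nupr1 (0.91), with 0.48, 0.56 and 0.62 after it. Sfrp1 had Bmp6 (0.95), Edn1 (0.91) and Bmx (0.91), and the r after subtracting group means was 0.93, 0.88 and 0.92. Sfrp2 had Fut11 (0.93), Plat (0.92) and Tctn1 (0.92), for which Spearman's rho was lower, at 0.70, 0.71 and 0.66. Their r after the subtraction was 0.92, 0.88 and 0.93. Sfrp4 had the weakest neighbours over the 16 arrays, Fap (0.80), Chl1 (0.79) and Shisa3 (0.78), with 0.86, 0.84 and 0.82 after it. Sfrp5 had Eif3f (0.92), Plcb2 (0.88) and Tpm3 (0.88), with 0.72, 0.54 and 0.60 after it. Dkk2 had Clta (0.90), Srgn (0.89) and Cd93 (0.89), with 0.93, 0.81 and 0.83 after it.

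Between members, Wif1 and Frzb had the highest r over the 16 arrays, 0.88, which was 0.54 after subtracting group means. Sost and Dkk3 had 0.87, and 0.65 within groups, whereas Sost and Wif1 had 0.83 and only 0.34 within groups. Sost and Frzb, both low in the non-diabetic RBX mice, had 0.59 over all arrays and -0.23 within groups. Sfrp5 and Dkk3 had -0.75, and -0.18 within groups. Sfrp1 ran opposite to Dkk3 (-0.74) and to Sfrp2 (-0.68) also within groups, at -0.59 and -0.62.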

How the data were processed

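Per the labels' protocols, 2 ug of Trizol-extracted RNA from each whole aorta was labelled for 1 array. The authors computed signals with MAS5 (version not given in the sources used here), per the submitters' processing notes. The deposited linear intensity covered 45101 probe sets and 16 arrays, from 0.7 upwards, with a mean of 1500.01 per array after leaving out 2% at each end. Detection calls were not used here. Gene symbols came from GEO's platform annotation (34958 probe sets with 1 symbol, 932 with several and 9211 unnamed here).

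The log2 of the signal was used without an offset, and probe sets were kept above the median of the mean log2 signal, a linear signal of 383.0, and the probe set with the highest mean stood for each gene. Differences were fitted with limma 3.58.1 in R 4.3.3 (lmFit, eBayes with trend) over the 16 arrays with 4 group means, 12 residual and 6.2 prior degrees of freedom; two-sided p-values were adjusted by Benjamini-Hochberg over 11037 genes in each of 6 comparisons. The script was checked on simulated data. The labels call the arrays biological replicates, 1 mouse each, and the main fit used no pairing (2 of 24 same-numbered pairs correlated above 0.1). Besides the 9 members, the text names the 3 genes nearest to each member and, from each Wnt list, up to 6 genes that passed with the smallest p or, where none passed, some of those with the smallest p. Members, gene lists and marker lists were chosen with earlier results of these data known. Alternatives were other scalings, filters, probe set rules, weights, covariates, a replicate block and the omission of each array.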

Additional observations from a re-analysis of the deposited data

Results flagged for a closer look

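Untreated non-diabetic mouse 3 had a Sost signal of 7696.2, far below the other 3 mice of its group at 14734.3 to 14983.4; the gap was 0.975 of the range of the group, beyond the 95% limit of Dixon's gap ratio. Diabetic RBX mouse 4 had a Wif1 signal of 1615.5, with a gap of 0.838 of the range to the other 3 mice at 2310.3 to 2475.4. Of 36 sets of a member and a group 2 were marked, and chance marks about 1 in 20.

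The effect of RBX differed between diabetic and non-diabetic mice, by the interaction term of the limma fit, for Sost (3.06 on the log2 scale), Wif1 (1.84) and Dkk3 (1.13). With the cre control signal as a covariate 0 of these 3 kept an adjusted p under 0.05. With the Actb ratio Sost (2.50, adjusted p = 0.0149) and Wif1 (1.48, adjusted p = 0.0159) kept it and Dkk3 (1.06, adjusted p = 0.115) did not.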

How the results depend on the processing

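Of the called differences, that of Wif1 between diabetic RBX and non-diabetic RBX mice was past the threshold under all 20 of its alternatives. Those in the probe set rule could not change the size of that difference, since Wif1 had no other probe set. The number of members called was within 1.5 times that reported except as follows, and the causes were not tested beyond what each alternative leaves out. With the cre covariate it was 0 instead of 7 for RBX in non-diabetic mice, 0 instead of 3 for diabetes and RBX together and for the interaction, 1 instead of 3 for diabetes with RBX, and 0 instead of 1 for diabetes without RBX. With the Actb covariate it was 2 for RBX in non-diabetic mice and 0 for diabetes without RBX and for both together. With array weights it was 1 for RBX in diabetic mice (Frzb), 2 for diabetes without RBX and 6 for both together. A fit of only the groups compared gave 1 for RBX in diabetic mice and 5 for both together. Without the filter both together gave 1, and the mean over probe sets gave 0 for diabetes without RBX. Leaving out an array gave 0 to 1 for diabetes without RBX and 1 to 4 for both together.

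The replicate block called 1, 7, 0, 3 and 3 members in the 5 comparisons and 4 instead of 3 for the interaction, where Dkk2 was added (-1.46, adjusted p = 0.0407), and moved the genes called for diabetes without RBX from 72 to 184; Wif1 for both together then had an adjusted p of 0.0509 and Dkk3 one of 0.0298. Array weights gave 1209 genes there, the fit of only those groups 209, the mean over probe sets 43, the stricter filter 116, the cre covariate 4, the Actb covariate 21 and the omission of an array 1 to 334. Genes called for RBX in diabetic mice were 5, against 15 (quantile normalization), 13 (stricter filter), 2 (mean over probe sets), 36 (only those groups), 36 (array weights), 16 (cre), 1 (Actb) and 1 to 5 (an array left out), with 20% of the 5 higher and 53.3% under quantile normalization. For both together they were 434, against 230 (mean over probe sets), 980 (only those groups), 1870 (array weights), 16 (cre), 5 (Actb) and 72 to 713 (an array left out). For diabetes with RBX they were 784, against 387 (only those groups), 48 (cre), 292 (Actb) and 400 to 918. For RBX in non-diabetic mice they were 3494, against 0 and 174 with the covariates, and for the interaction 1274, against 0 and 341, and 771 to 1530 with an array left out. The labels state no link between same-numbered arrays beyond the number, and correlations of their deviations were -0.14 to 0.18. Whether these arrays share anything else cannot be told from these values.

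Signs turned in 30 fits, 29 of them of differences that had not passed. With the cre covariate the values were -0.27 (Dkk2, RBX in non-diabetic mice, the exception), 0.44 (Dkk2, diabetes with RBX), 0.048 (Sfrp2, RBX in diabetic mice), 0.21, 0.27 and -0.17 (Sfrp2 for RBX without diabetes, both together and the interaction), -0.47 (Sfrp4, interaction) and 0.024 (Sost, both together). With the Actb covariate they were 0.10, 0.0048 and 0.26 (Sfrp2, RBX with diabetes, RBX without diabetes and both together) and -0.23 (Sfrp4, RBX in non-diabetic mice). Array weights gave Sfrp4 -0.0028 for RBX in non-diabetic mice, and quantile normalization gave Sfrp2 -0.0057 for diabetes without RBX. Leaving out an array gave -0.27 to 0.22 for Dkk2 and -0.062 to 0.27 for Sfrp1 with RBX in diabetic mice, and -0.069 to 0.073 for Sfrp2 with diabetes alone. For Sfrp4 it gave -0.013 to 0.42 with RBX in diabetic mice, -0.086 to 0.25 with RBX in non-diabetic mice and -0.095 to 0.33 for the interaction.

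Sfrp5 and Dkk2, the dimmest members, were below the filter at the 70th percentile and have no value there. The signal of MAS5 has no detection call here, and low signals such as that of the second Sost probe set were not set against background. With 4 mice per group, wide intervals such as those of Dkk2 and Sfrp4 leave room for differences that did not pass.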
